A study of Caenorhabditis elegans with 2 samples.

Results

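The srw, srt and srd families of chemoreceptor genes were examined for binding of ZIP-8, a transcription factor of the basic leucine zipper (bZIP) class, in Caenorhabditis elegans. Members were all protein-coding genes named srw-, srt- or srd- plus a number in the Ensembl annotation of WBcel235, the assembly whose coordinates are those of ce11. This gave 237 of 19973 protein-coding genes on the nuclear chromosomes, 109 of them srw, 61 srt and 67 srd. The families were chosen by the signal of ZIP-8 peaks, since the chemoreceptor genes with the highest promoter signals in an earlier look at the same lists belonged to them. Binding shares and signals of these genes are therefore descriptions, and no test was applied to them.

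The data came from chromatin immunoprecipitation with sequencing (ChIP-seq) against eGFP-ZIP-8, a fusion of ZIP-8 with enhanced green fluorescent protein. There was 1 group of 2 biological replicates, each of whole embryos of mixed stages and pooled sexes from strain OP327, which carries the unc-119(ed3) mutation on chromosome III and the insertion wgIs327 made for zip-8. Both replicates share this genotype, no untagged worms or other condition were analysed here, and the labels do not give the promoter or the cells that drive the fusion. On the nuclear chromosomes the optimal list, thresholded by the authors on reproducibility (irreproducible discovery rate), held 2610 peaks, the pooled list 29972, the replicate 1 list 22773 and the replicate 2 list 12190. The label of the pooled list describes it as peaks and background used as input for the irreproducible discovery rate. A pooled summit outside the optimal list is therefore not by itself evidence of binding. Read depth per library is unknown. Signal is the enrichment value that the authors gave to each peak, on a scale that no label or file states. Values of different lists were not set against each other as sizes.

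Chemoreceptors of the nematode are G protein-coupled receptors with membrane-spanning helices, most of which are thought to act in ciliated sensory neurons that detect odours, tastes and pheromones. Large families arose by tandem duplication, and many members lie in gene clusters, above all on chromosome V. The srd family belongs to the Str superfamily and srt to the Srg superfamily, while srw stands alone and resembles receptors for peptides. A bZIP factor binds DNA as a dimer, with each partner reading one side of a short site, so sites are palindromes or hybrids of different sides. For most of the members no ligand is known. Where no role is given for a named receptor gene below, none is known with confidence.

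Of the 237 genes, 10 had an optimal summit in the promoter window, which runs from 1000 bp upstream to 200 bp downstream of a transcript start. These bound genes were srw-7, srw-12 and srw-38, the srt genes srt-4, srt-6, srt-28, srt-29, srt-39 and srt-45, and srd-43. Between them they held 11 summits, 2 of them at srt-6. The 10 genes are 4.22% of the members (exact Clopper-Pearson 95% interval 2.04 to 7.62), and 4.35% of all protein-coding genes were bound by the same rule. Since these peaks also chose the families, nothing is read from how close the shares are.

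The sequence at the summits shows what kind of site each bound gene carried. A full bZIP site was any match, on either strand, to the CRE pattern (TGACGTCA or TGACGTAA), the C/EBP palindrome TTGCGCAA, the PAR palindrome TTACGTAA, the hybrid of C/EBP and CRE TGACGCAA, or TGATGCAA, lying wholly within 50 bp of the summit. In the stretches shown here, 81 bases of the ce11 plus strand are centred on each summit, and capitals mark full sites, or TTGCGTAA and its complement TTACGCAA. The hybrid of C/EBP and CRE was found at srt-6, srw-7 and srw-12, where the plus strand reads TTGCGTCA.
srt-6 (chrV:7408680-7408760): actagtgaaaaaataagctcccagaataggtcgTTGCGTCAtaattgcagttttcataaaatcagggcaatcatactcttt
srw-7 (chrV:3805614-3805694): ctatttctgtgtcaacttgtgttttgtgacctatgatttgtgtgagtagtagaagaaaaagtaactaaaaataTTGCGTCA
srw-12 (chrV:15239292-15239372): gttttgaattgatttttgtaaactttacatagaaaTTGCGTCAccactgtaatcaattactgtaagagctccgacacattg

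The PAR palindrome stood at srd-43 and srw-38.
srd-43 (chrX:13305939-13306019): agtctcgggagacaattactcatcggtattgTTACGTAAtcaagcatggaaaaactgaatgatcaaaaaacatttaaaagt
srw-38 (chrV:19836244-19836324): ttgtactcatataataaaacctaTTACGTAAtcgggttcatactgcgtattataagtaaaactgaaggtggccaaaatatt

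The C/EBP palindrome was present at srt-4, and the CRE variant TGACGTAA, or its complement TTACGTCA, at srt-39 and at the second summit of srt-6.
srt-4 (chrV:2577351-2577431): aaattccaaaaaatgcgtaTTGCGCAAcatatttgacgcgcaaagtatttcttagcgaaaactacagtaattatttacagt
srt-39 (chrV:12483989-12484069): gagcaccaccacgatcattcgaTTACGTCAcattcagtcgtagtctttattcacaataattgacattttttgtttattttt
srt-6, second summit (chrV:7409293-7409373): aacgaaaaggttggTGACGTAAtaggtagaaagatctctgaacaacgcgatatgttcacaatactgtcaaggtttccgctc

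The other 3 summits, at srt-28, srt-29 and srt-45, had no full site. Each instead held TTGCGTAA or its complement, which joins one side of the C/EBP palindrome to one side of the PAR palindrome and is not among the patterns of a full site.
srt-28 (chrV:2713642-2713722): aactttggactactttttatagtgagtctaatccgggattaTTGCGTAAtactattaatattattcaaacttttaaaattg
srt-29 (chrV:2719368-2719448): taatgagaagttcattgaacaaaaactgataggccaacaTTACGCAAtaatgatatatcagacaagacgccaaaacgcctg
srt-45 (chrV:19783824-19783904): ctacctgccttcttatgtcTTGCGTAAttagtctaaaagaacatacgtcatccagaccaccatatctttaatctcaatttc

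A full site was present at 8 of the 11 summits (72.7%, exact 95% interval 39.03 to 94.0) and at 77.8% of the 808 optimal summits in promoters of all protein-coding genes. In equally wide side windows, with centres shifted by 250 bp, 0 of the 11 had one, which allows a share of up to 27.3%, against 2.23% of the 808. Among the kinds of full site, the hybrid of C/EBP and CRE was the most frequent at members, at 3 summits, and occurred at 8.54% of the 808. The CRE was found at 2 member summits and 48.9% of the 808, the PAR palindrome at 2 and 3.59%, and the C/EBP palindrome at 1 and 15.8%. These counts are small, and no difference between them was tested.

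TTGCGTAA was counted after the sequences of the members had been seen. It lay within 50 bp of 3 of the 11 member summits and of 307 of all 2610 optimal summits (11.8%, exact 95% interval 10.6 to 13.1), against 0.192% of side windows and 0.998% of the 27362 lower-ranked pooled summits. Among the 556 optimal summits without a full site it was present at 282 (50.7%). With this pattern added, 11 of 11 member summits and 714 of 808 promoter summits (88.4%) had a site.

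The highest signal at a member was that of srd-43, a gene of the Str superfamily on chromosome X (WBGene00005121, chrX:13303905-13305844, minus strand). Its peak had a signal of 95.0 in the pooled list, 55.7 in the replicate 1 list and 22.5 in the replicate 2 list. The summit (chrX:13305979) lay in intergenic sequence 135 bp upstream of the start, and the centre of the PAR palindrome was 5.5 bp from it. srd-43 is the last gene of a cluster of 5 srd genes, and the others, srd-38, srd-36, srd-39 and srd-42, had no summit in the pooled list.

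In the srt family the leading gene was srt-6 (WBGene00020055, chrV:7407547-7408814, minus strand), with a peak of 92.5 in the pooled list, 58.1 in the replicate 1 list and 24.7 in the replicate 2 list. This summit (chrV:7408720) was the only one of the 11 downstream of a start, 94 bp into the gene and in its coding exon. The second summit at srt-6 (chrV:7409333), 519 bp upstream, had a signal of 21.7 in the pooled list and 17.8 in the replicate 1 list, and no overlapping peak in the replicate 2 list. It lay in the promoter window of the neighbouring gene R13D7.2 as well. The signal of 21.7 was the lowest at any bound member and close to the lowest of the whole optimal list, 21.4.

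At srt-4 (WBGene00016232, chrV:2577903-2579816) the peak 512 bp upstream had a signal of 78.7 in the pooled list and of 62.6 in the replicate 1 list, the highest of the members there. No peak of the replicate 2 list overlapped it, although that list reaches down to a signal of 2.00. The peak at srt-39 (WBGene00012242, chrV:12484885-12486068) had signals of 38.6 in the pooled list, 26.5 in the replicate 1 list and 6.23 in the replicate 2 list. Its summit lay 856 bp upstream of the start of srt-39, inside a coding exon of atn-1, the gene for alpha-actinin of muscle. It was the farthest from its start of the 11 summits.

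srt-28 (WBGene00016049, chrV:2712028-2713632) and srt-29 (WBGene00016050, chrV:2717395-2719135) lie side by side on the minus strand with starts 5.50 kb apart, in a cluster of 3 with srt-27. They were the only cluster mates that were both bound. The peak at srt-28, 50 bp upstream, had a signal of 34.1 in the pooled list and 27.0 in the replicate 1 list, with no overlapping peak in the replicate 2 list. That at srt-29, 273 bp upstream, had 30.2 in the pooled list, 18.6 in the replicate 1 list and 3.73 in the replicate 2 list. Both summits carried TTGCGTAA, in opposite orientation. The remaining gene, srt-45 (WBGene00010929, chrV:19784129-19785961), had 23.7 in the pooled list, 11.6 in the replicate 1 list and 11.5 in the replicate 2 list, with the summit 265 bp upstream.

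Among the srw genes, srw-7 (WBGene00005754, chrV:3806261-3807752) led with signals of 69.2 in the pooled list, 39.4 in the replicate 1 list and 17.7 in the replicate 2 list. The summit lay 607 bp upstream, also in the promoter window of R08F11.4, and the site was 36.5 bp from it, the widest gap of the 8 summits with a full site. srw-38 (WBGene00005785, chrV:19836442-19839342) had 39.1 in the pooled list, 8.55 in the replicate 1 list and 12.8 in the replicate 2 list, 158 bp upstream. The peak at srw-12 (WBGene00005759, chrV:15237170-15238652, minus strand) had 37.9 in the pooled list, 30.4 in the replicate 1 list and 5.003 in the replicate 2 list. Its summit was 680 bp upstream of srw-12, in a coding exon of the next gene of the cluster, srw-11, and the site was centred 1.5 bp from it.

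**Figure D1:**
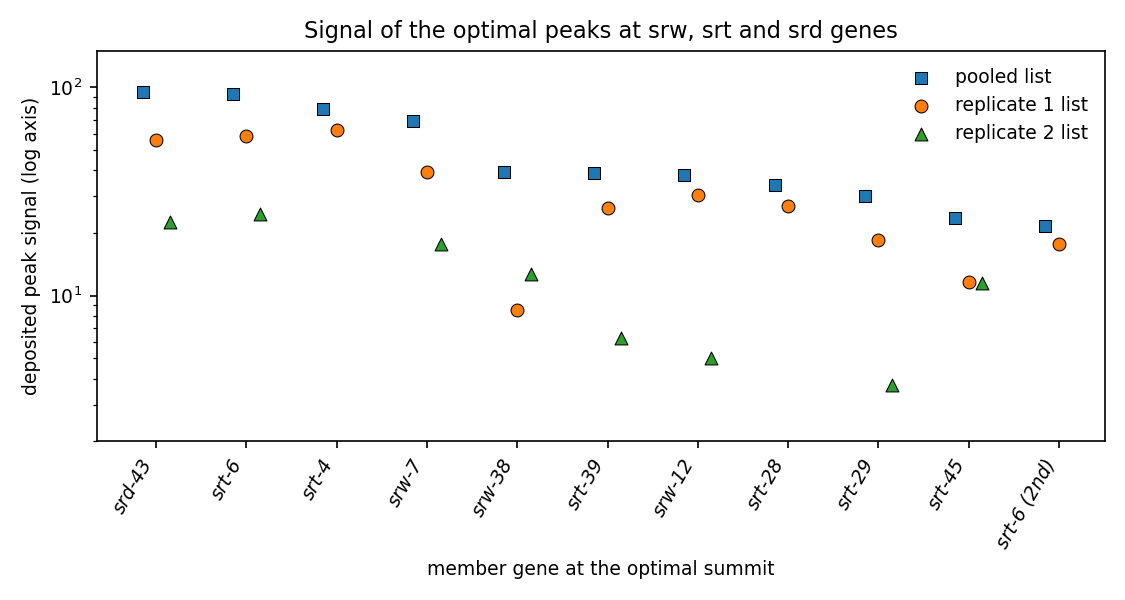
Signal of the 11 optimal peaks at srw, srt and srd genes (x axis, ordered by pooled signal) in the pooled, replicate 1 and replicate 2 lists (y axis, deposited signal, log scale). srd-43 and srt-6 lead with 95.0 and 92.5 in the pooled list, and no replicate 2 point is drawn for srt-4, srt-28 and the second summit of srt-6, where that list had no overlapping peak.

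A replicate 1 peak overlapped 11 of the 11 summits, and a replicate 2 peak overlapped 8. Of the 808 promoter summits of all genes, 99.1% overlapped a replicate 1 peak and 85.0% a replicate 2 peak. The peaks of the optimal list were the top of the pooled list by signal. Counting only optimal peaks that overlapped a peak of both replicates left 3 srw, 4 srt and 1 srd gene bound, against 3.66% of all genes under the same demand. This alternative was chosen after the data had been seen.

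The median signal of the 11 member summits was 38.6, against 38.2 for the 808 promoter summits (interquartile range 27.5 to 57.3). Their signals ranged from 37.9 to 69.2 in srw and from 21.7 to 92.5 in srt, so the ranges of srw and srt overlapped. The only srd summit, with a signal of 95.0, lay above both ranges. By location, 8 of the 11 summits were intergenic and 3 lay in coding exons. The median distance to the start was 273 bp, and 5 summits were more than 500 bp upstream. Another protein-coding gene had the summit in its window at 2 of the 11, against 10.9% of the 808.

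The bound share differed in size between the families, and the intervals overlapped. In the optimal list 3 of 109 srw genes were bound (2.75%, exact 95% interval 0.571 to 7.83), 6 of 61 srt genes (9.84%, 3.70 to 20.2) and 1 of 67 srd genes (1.49%, 0.0378 to 8.04). The background of 4.35% lay inside all of these intervals, which is a description and no test, since these peaks also chose the families. All 9 bound srw and srt genes were on chromosome V, where 95 of the srw and 47 of the srt genes lie and where 3.86% of all protein-coding genes were bound. Within that chromosome the shares were 3.16% for srw and 12.8% for srt (4.83 to 25.7). Of the 31 srd genes there 0 were bound, which allows a share of up to 9.68%. These srd genes include both gene IDs of srd-61, srd-71 and srd-73, whose windows hold sequence repeated elsewhere. The srt count depended on the library. Among as many top peaks of the replicate 2 list alone 2 srt genes were bound, against 4.90% of all genes, and among those of the replicate 1 list alone 5, against 4.25%. It was 3 among the 50% of optimal peaks with the higher signal, against 2.19% of all genes. The counts of srw and srd depended on the window, with 7 of 109 and 4 of 67 bound when it reached 2000 bp upstream. The share of all genes rose with it too, from 4.35% to 6.94%.

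By its label the pooled list also holds background, so a summit there need not be binding. In the pooled list 28 srw genes had a summit (25.7%, exact 95% interval 17.8 to 34.9), 17 srt genes (27.9%, 17.1 to 40.8) and 10 srd genes (14.9%, 7.40 to 25.7), against 39.1% of all protein-coding genes. In the replicate 1 list the shares were 22.02% for srw, 27.9% for srt and 19.4% for srd, against 30.8%. In the replicate 2 list they were 10.1%, 13.1% and 4.48% in the same order, against 20.2%. By point values the srt family stood above the background in the optimal list and below it in the other 3, and srw and srd stood below it in every list. Intervals of srd reached the background in the optimal and replicate 1 lists, those of srw in the same lists, and those of srt in all lists. These intervals are descriptions and no test, since the families were chosen by signal in these data and neighbouring genes are not independent.

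**Figure D2:**
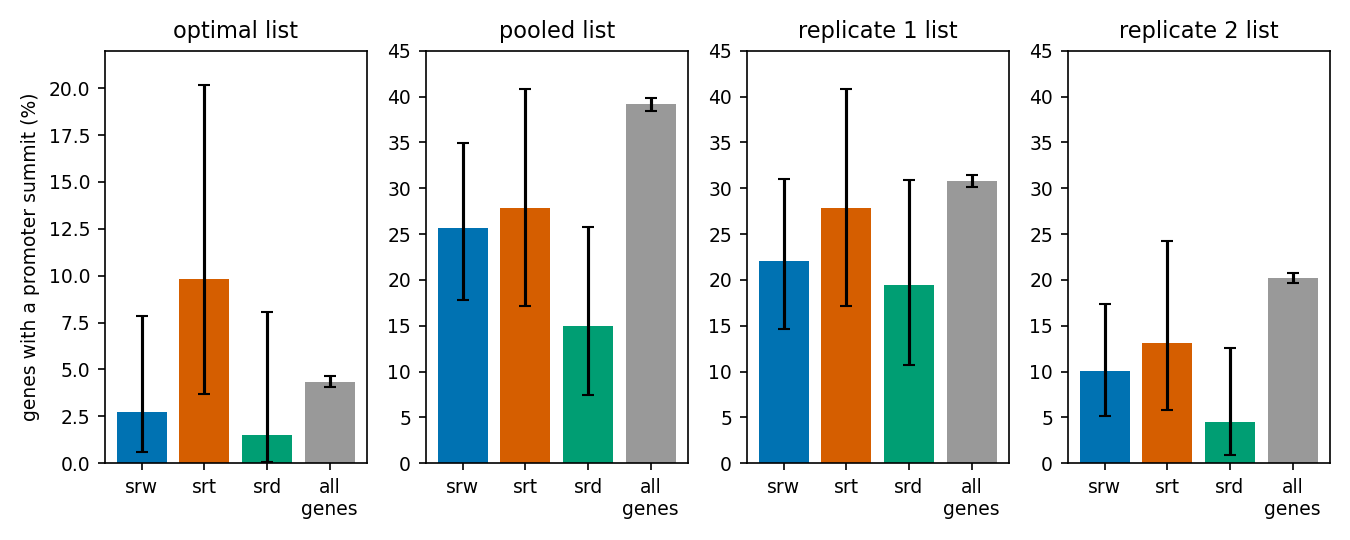
Share of srw, srt, srd and all protein-coding genes with a promoter summit in each of the 4 lists (y axes, percent), with exact 95% intervals as bars. The srt share of 9.84% exceeds the 4.35% of all genes in the optimal list, while each family lies below the 39.1% of all genes in the pooled list.

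Among genes with any pooled summit, an optimal one was found for 6 of 17 srt genes (35.3%, exact 95% interval 14.2 to 61.7), 3 of 28 srw genes (10.7%, 2.27 to 28.2) and 1 of 10 srd genes (10%, 0.253 to 44.5). For all protein-coding genes this share was 11.1%, and for the other chemoreceptor families together 8.93%. The optimal list is the top of the pooled list by signal, which also chose the families. Nothing is therefore read from these shares.

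Every member is accounted for as follows. An optimal summit was found at 10 genes. A pooled but no optimal summit was found at 45 (19.0%), against 34.8% of all protein-coding genes, and a summit in a replicate list alone at 23 (9.70%), against 10.2%. The remaining 159 genes (67.1%), 71 srw, 38 srt and 50 srd, had no summit in any of the 4 lists, against 50.7% of all genes. Among them was srd-1, chosen after its values were seen because it is known as a receptor for a volatile sex pheromone in males. The strongest summits in windows with a summit in a replicate list alone were those of replicate 1 at srd-66 (signal 10.4) and srt-55 (7.23). This class depends on the window edge. An optimal summit with a signal of 33.0 lay 253 bp downstream of the start of srd-66, outside the window.

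The pooled list includes background by its label. Outside the optimal list, 51 pooled summits lay at members, with signals from 2.45 to 17.1 and a median of 5.10. The highest were at srw-84 (17.1), srw-16 (11.2) and srw-88 (10.3) in srw, at srt-73 (14.2), srt-33 (10.9) and srt-49 (8.11) in srt, and at srd-70 (8.85), srd-23 (5.34) and srd-21 (5.23) in srd. The summits of srw-84 and srw-88 lay in coding exons of nceh-1 and T06G6.6, and that of srw-16 in an intron of srw-17. Those of srt-73 and srd-70 also lay in the promoter windows of kin-26 and F48F5.6. Of the 51 summits 30 overlapped a replicate 1 peak, 5 a replicate 2 peak and 3 a peak of both. The 3 genes below the optimal list with overlapping peaks in both replicate lists were srw-84 (9.34 in replicate 1 and 2.26 in replicate 2), srt-49 (2.91 and 6.20) and srw-94 (4.54 and 6.11). The gene srt-55 had peaks in both replicate lists too, of 7.23 in replicate 1 and 2.55 in replicate 2, that did not overlap.

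Most of the summits outside the optimal list had no full site. A site was present at 10 of the 51 (19.6%, exact 95% interval 9.82 to 33.1), against 8.24% of the 8059 pooled promoter summits of all genes outside the optimal list. It was found at 6 of 27 srw, 4 of 13 srt and 0 of 11 srd summits. The srw count includes several summits of the same gene, srw-84, with signals of 17.1, 6.81 and 6.72, which are not independent. With a split at a signal of 8, which was set after the values had been seen, 7 of the 9 stronger summits and 3 of the 42 weaker ones had a site. Of the promoter summits of all genes outside the optimal list, 415 of 1659 at or above the same signal (25.02%) and 249 of 6400 below it (3.89%) had one. With the split chosen on the members, the difference between members and all genes was not tested. The CRE accounted for srw-84, srw-16, srw-88, srw-56, srt-33 and srt-49, and the hybrid of C/EBP and CRE for srt-73.

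The window of srw-84 held 2 further pooled summits. One of them, with a signal of 6.72 and 777 bp upstream of the start, lay on a repeat in which the hybrid site recurs.
srw-84 (chrV:19380451-19380531): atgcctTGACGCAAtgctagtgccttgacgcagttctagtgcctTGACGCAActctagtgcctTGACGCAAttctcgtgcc
Here 3 copies read TGACGCAA. The summits with a single hybrid site at srt-6, srw-7 and srw-12 had 92.5, 69.2 and 37.9 in the same pooled list. Others with a single hybrid site were weaker, with 14.2 at srt-73 and 6.81 at another summit of srw-84.

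**Figure D3:**
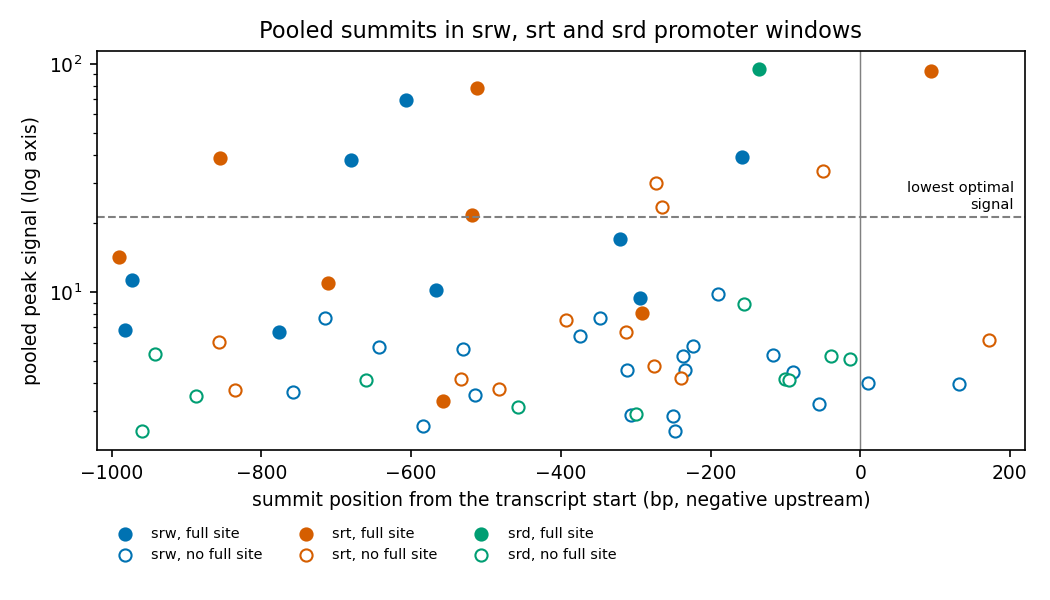
Pooled signal (y axis, log scale) against the position of the summit from the transcript start (x axis, bp) for the 62 pooled summits at srw, srt and srd genes, filled where a full bZIP site lies within 50 bp. The dashed line is the lowest optimal signal, 21.4, and the 3 open points above it are the srt summits with TTGCGTAA.

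A full site anywhere in the window was present at 50 of the 237 members (21.1%), namely 21 srw, 17 srt and 12 srd genes, and at 20.4% of all protein-coding genes. Of these 50, 7 were bound in the optimal list (14%, exact 95% interval 5.82 to 26.7), 3 each in srw and srt and 1 in srd, against 18.4% of all genes with such a site. A pooled summit was found at 22 of the 50 (44%), against 61.9% of all genes with a site. Among the 187 members with no full site in the window 3 were bound (1.60%), against 0.749% of all genes without one, and these 3 were srt-28, srt-29 and srt-45.

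**Figure D4:**
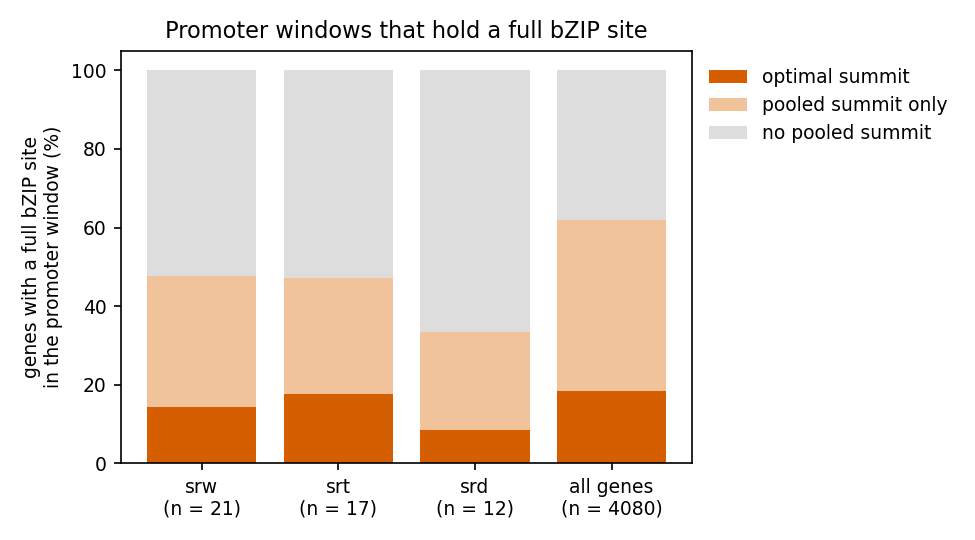
Genes with a full bZIP site in the promoter window (21 srw, 17 srt, 12 srd and 4080 of all protein-coding genes), split by whether an optimal summit, only a pooled summit or no pooled summit lay in the window (y axis, percent). An optimal summit was found for 14.3% of these srw, 17.6% of srt and 8.33% of srd genes, against 18.4% of all genes.

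The families are clustered, and no optimal or pooled peak was shared between members. Genes of the same family with neighbouring starts at most 10 kb apart formed 40 clusters that held 142 of the 237 members, 71 srw in 17 clusters, 34 srt in 11 and 37 srd in 12. Of the 10 bound genes 5 lay in clusters and 5 alone. None of the 11 optimal and 62 pooled summits lay in the windows of 2 members. In the replicate lists the count was 1, a replicate 1 peak of signal 6.04 in the windows of srd-58 and srd-59, neither of which had a pooled summit. For the bound genes the nearest start of another member was from 1.66 kb (srw-12) to 284 kb (srt-39) away. How many member windows overlap was not counted, so nothing is read from the absence of shared peaks.

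The largest cluster of each family had no bound gene. In srw it comprised 20 genes from srw-141 to srw-135 (chrV:2937311-3011494), 6 of them with a pooled summit and none with a signal above 7.67. In srt it comprised 10 genes from srt-12 to srt-19 (chrV:4240952-4287203), 2 with a pooled summit of at most 6.15. In srd it comprised 7 genes from srd-40 to srd-44 (chrX:12323739-12340248), 1 with a pooled summit, of 4.13, at srd-48. The cluster of 6 srw genes that includes srw-12 (chrV:15223968-15240315) had 1 further member with a pooled summit, srw-13 (9.85). At srw-7 the cluster mate srw-6, with a start 2.38 kb away, had no optimal summit.

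Some promoter windows repeat sequence found elsewhere. In 11 member windows, 8 of srd and 3 of srt, fewer than 50% of the 31-base words occurred once in the genome, and none of these had a summit in any list. They include 4 names, srd-61, srd-71, srd-73 and srt-1, that the annotation gives to 2 gene IDs each within chrV:2394485-2546063, where 0% of the words in the windows were unique. Of the 226 other members 4.42% were bound, against 4.47% of all genes above the same limit. The window of srw-38 was the least unique of the bound genes, at 58.4%, and those of the other bound genes ranged from 87.1% to 100%. No label or file used here states the read length or the treatment of repeats, and the part of repeats in the counts was not tested.

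Just inside and outside the limits of the rule stood these values. The lowest optimal signal at a member was 21.7 (srt-6, second summit), and the highest pooled signal left out was 17.1 (srw-84). The farthest optimal summit inside the window was that of srt-39 at 856 bp. An optimal summit with a signal of 44.9 lay 1007 bp upstream of srd-35, and one with a signal of 47.7 lay 208 bp downstream of the start of srw-90, both just outside.

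In the other chemoreceptor families 25 of 1072 genes were bound (2.33%, exact 95% interval 1.51 to 3.42), against the 4.35% of all genes. Their 26 optimal summits had a median signal of 38.9 and a highest one of 57.5, at str-166, and 21 of them (80.8%) held a full site. The signals at srd-43, srt-6, srt-4 and srw-7 exceeded that value, which is the property the families were chosen by. Of 19 other families 10 had no bound gene, with 259 genes in all. These families were grouped by their count of 0, so no upper limit is given for their share. Among families of 30 or more genes the highest share outside the 3 was that of srh, at 4.09%.

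**Figure D5:**
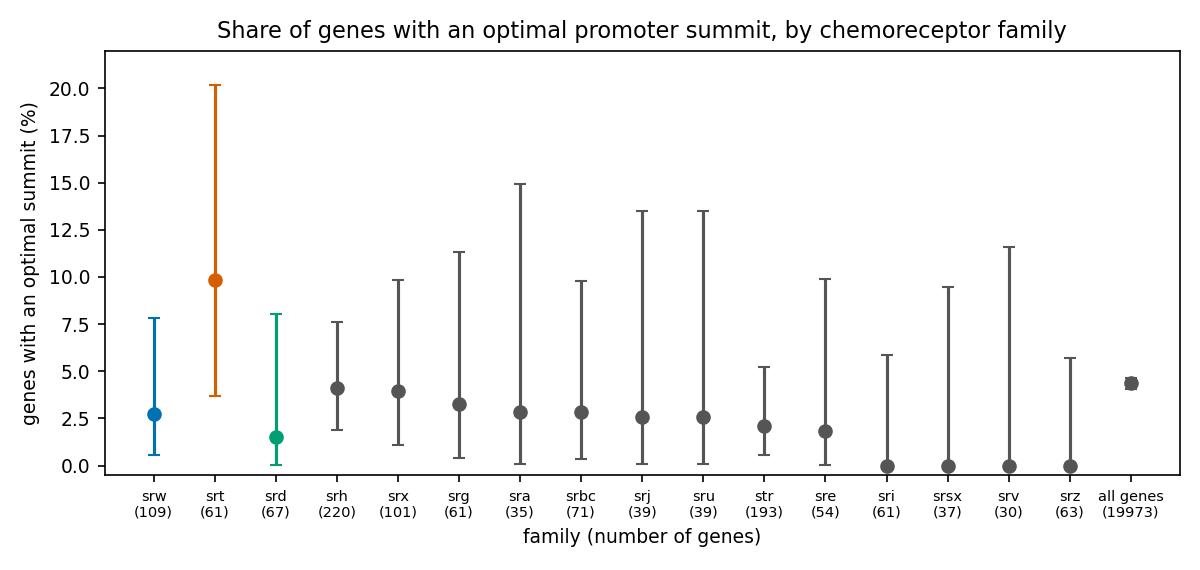
Share of genes with an optimal promoter summit (y axis, percent) in srw, srt and srd, in the other chemoreceptor families of 30 or more genes, and in all protein-coding genes at the right, with exact 95% intervals as bars. The point of srt at 9.84% is the highest, and its interval overlaps those of the other families.

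Genes that act downstream of or beside chemoreceptors, or belong to families with such genes, were also listed. The list of 40 included the G protein alpha subunits gpa-1 to gpa-17 and odr-3, the cyclic nucleotide channel genes tax-2 and tax-4, the channels osm-9 and ocr-2, guanylyl cyclases, regulators of signalling, the receptor trafficking genes odr-4 and odr-8, and regulators of sensory neuron fate. In the optimal list 0 of the 40 were bound, which allows a share of up to 7.5%, against 4.35% of all genes. In the pooled list 11 had a summit (27.5%), the highest at eat-16, a regulator of G protein signalling (12.8), odr-4 (9.60) and gpa-2 (9.51), against 39.1% of all genes.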

How the data were processed

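Peak lists in narrowPeak format were deposited. The peak files carry no header. Per the text files deposited with the replicates, which list what each file was derived from, each replicate list was made from that replicate's alignments, the pooled list from the alignments of both, each with a further file whose role is not stated, and the optimal list from these lists by irreproducible discovery rate. No label or file used here names the aligner, the peak caller or the threshold. The signal is the enrichment value per peak in the lists deposited by the authors, and the summit is the offset from the peak start in the same lists. The ce10 lists, signal tracks and any control were not analysed here. Read depth is unknown, so intervals (exact Clopper-Pearson, 95%) and the limits for a count of 0 (3 counts of the total) cover counting of genes or summits only.

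Summits were linked to starts of protein-coding transcripts (Ensembl release 115) across all 19973 genes, with 1-based ce11 coordinates. Peak overlaps needed 1 bp. Sequences came from the RefSeq genome of WBcel235. Side windows lay to the right of peaks of odd rank and to the left of those of even rank. Python 3.11.15, NumPy 2.4.6 and SciPy 1.17.1 were used, and the counting was tested on simulated data. Neighbouring and related genes are not independent, and no condition was compared, so no p-value is given. The labels name separate biological samples but not separate cultures.

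Members, gene lists and the 5 site patterns were chosen with earlier results of these data known. By rule the text names bound members, members with summits in both replicate lists, the 3 highest other members per family, the largest clusters, bound pathway genes and genes that share an optimal summit with a member. All other genes it names with a value (srw-13, srw-56, srd-35, srw-90, srd-48, srd-58, srd-59, srd-66, str-166, eat-16, odr-4, gpa-2) were chosen after their values were seen. Alternatives changed the window, the starts, the overlap rule, the peaks and replicates used, the site distance and the cluster gap.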

Additional observations from a re-analysis of the deposited data

How the results depend on the processing

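The count of bound genes moved with the promoter window. With 500 bp upstream it was 6 (1 srw, 4 srt, 1 srd), with 2000 bp it was 18 (7 srw, 7 srt, 4 srd), and with any overlap of the peak interval 16 (7 srw, 6 srt, 3 srd), while all protein-coding genes stood at 2.71%, 6.94% and 5.06%. The 50% of peaks with the higher signal left 6 bound genes (2 srw, 3 srt, 1 srd), against 2.19% of all genes, and 100% of their summits held a full site. That share was also 100% with TTGCGTAA counted as a site, an alternative added after the data had been seen, as was the demand for peaks in both replicates, which left 8 bound genes, against 3.66% of all genes. With as many top peaks of a single replicate list, the total ranged from 5 without replicate 1, against 4.90% of all genes, to 8 without replicate 2, against 4.25%, srw was 2 in both, srt ranged from 2 to 5, srd was 1 in both, and the share with a full site ranged from 77.8% to 80%. With 1 start per gene the counts were as reported, against 3.57% of all genes, and no optimal summit lay in windows of 2 members under any of these alternatives. The share with a full site was 54.5% within 25 bp and 72.7% within 100 bp. The number of bound genes in clusters was 4 with starts at most 5 kb apart and 5 at 20 kb. No paired analysis was possible because the design has 1 group. Small families and unknown read depth limit all these counts.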
